A study of Mus musculus with 6 samples.

Results

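The neuropeptide cargo of regulated secretion was followed as 10 mouse genes in the neocortex of embryonic day 14. The genes were taken by name: chromogranin A (Chga) and carboxypeptidase E (Cpe) as proteins of the secretory granule, and the peptide precursors Sst, Npy, Cck, Tac1, Pdyn, Nppb, Nppc and Iapp as its load. All 10 had 1 probe each, of 6856 probes and 6041 named genes on the array. RNA came from the neocortex of 6 null mutant embryos on a C57BL/6 background, which the labels call synaptically silent, and from 1 pool of 6 wild-type animals of the same background and age, present in the other channel of every array. Replicates 1, 2 and 3 carried the mutant RNA in cy3 and replicates 4, 5 and 6 in cy5. The study's question is which transcripts need synaptic activity at this stage.

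Neuropeptides are made as larger precursors that enter the secretory pathway and are packed into dense core vesicles at the Golgi. Granins such as chromogranin A help to form the vesicle core, prohormone convertases cut the precursor at basic residues, and carboxypeptidase E trims the basic residues left at the cut ends. The vesicles fuse with the cell membrane when calcium rises, so peptide release follows electrical activity, and the transcription of several precursor genes is known to follow it too. In the mature neocortex somatostatin, neuropeptide Y and cholecystokinin are best known from inhibitory interneurons, whose forerunners migrate in from the ganglionic eminences before birth.

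Each value is the deposited log ratio of an array's 2 channels, read as log2. The table states neither the log base nor which channel is the numerator, so values are given as above or below 0 on the deposited scale, and no gene is called higher or lower in the mutants. Arrays of 1 dye orientation can be compared without settling this. Where both orientations were joined, the values were read as mutant over pool on every array, and the result with replicates 1 to 3 turned in sign is given beside it. Between 64.1% and 82.8% of the probes had a value on an array. The spread of the arrays differed, with an SD of 0.35 on replicate 2 and 1.09 on replicate 3. Replicates 3 and 4, which have opposite dyes, correlated at 0.59 with each other over probes and between -0.37 and -0.08 with the other 4 arrays. All 17 genes of the neocortex list that had a probe had values on all 6 arrays, among them Emx1, Tbr1 and Neurod6, and all 16 interneuron genes with a probe had a value on at least 1 array.

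The peptide genes fell apart first by how often they could be measured. Chga, Cpe, Nppb, Nppc and Iapp had a value on 6 of 6 arrays and Sst on 5. Npy, Cck, Tac1 and Pdyn had a value on 3 arrays each, as did 6.21% of all probes, whereas 54.9% of all probes had a value on all 6. Replicates 5 and 6 gave a value for all 10 members, replicate 1 for 8, replicates 2 and 4 for 7 each, and replicate 3 for 5. None of the 5 forebrain precursors Sst, Npy, Cck, Tac1 and Pdyn had a value on replicate 3. What made the authors leave a value out is not given in the sources used here, so a missing value is not read as a low level. Nor is a present value read as evidence of expression, since no intensities were used. The natriuretic peptide genes Nppb and Nppc and the amylin gene Iapp were thus measured on 6 arrays, against 5 for Sst and 3 each for Npy, Cck, Tac1 and Pdyn. Nppb is best known from heart and Iapp from pancreatic islet, while Nppc is known from brain as well as vessel and bone.

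**Figure D1:**
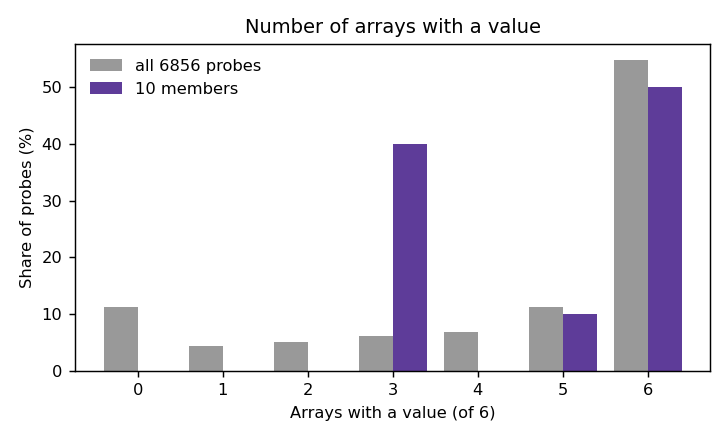
Share of probes, in percent, by the number of arrays with a value, for all 6856 probes (grey) and the 10 members (purple). The members fall at 3 arrays (4 genes), 5 arrays (1 gene) and 6 arrays (5 genes), and no member lacks a value on every array.

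**Figure D2:**
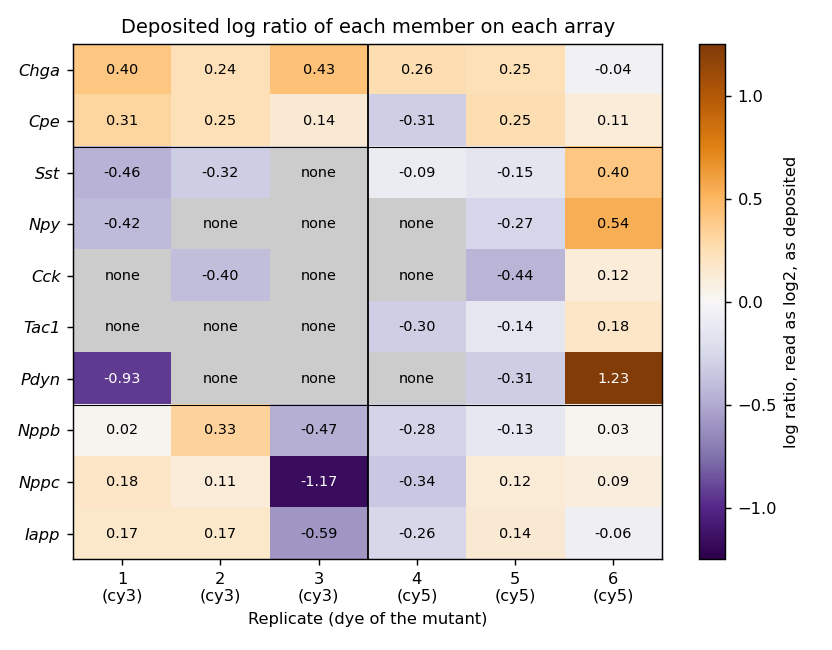
Deposited log ratio of each member (row) on each array (column), with the dye of the mutant under the replicate number. Orange cells are above 0, purple cells below 0, and grey cells marked none have no value. The 5 forebrain precursors in the middle block are below 0 wherever they were measured on replicates 1, 2, 4 and 5 and above 0 on replicate 6, as deposited.

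No member passed the test between the mutants and the pool. In limma, 6 members had the 2 values in each dye orientation that the fit needs, and 0 of them had an adjusted p under 0.05 (smallest 0.921), against 0% of the 4958 probes tested. Turning replicates 1 to 3 gave the same counts: 0 of 6 members and again 0% of 4958 probes passed. Of the 6 members, 2 had estimates above 0 and 4 below, with a median of -0.08, against a median of -0.03 over all 4417 genes fitted. In the turned reading 3 lay on each side, with a median of -0.02 against 0.02 over all genes. The pool is the only control, so variation among wild-type animals does not enter the test, and the number of arrays limits its precision.

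Chromogranin A, the granin that gives dense core vesicles their core, had values of 0.40, 0.24 and 0.43 on replicates 1 to 3 and of 0.26, 0.25 and -0.04 on replicates 4 to 6. It was above 0 on 5 of 6 arrays, and the 2 orientations overlapped. On replicate 1 it exceeded 89.6% of all probes, on replicates 2 to 5 between 72.2% and 83.2%, and on replicate 6 it lay near the middle, above 45.6%. The mean was 0.36 ± 0.10 (SD, n = 3) with the mutant in cy3 and 0.16 ± 0.17 (SD, n = 3) with the mutant in cy5. The limma estimate was 0.26 ± 0.11 (SE, n = 6; adjusted p = 0.921). Turning replicates 1 to 3 made it -0.10 ± 0.11 (SE, n = 6; adjusted p = 0.972). Of the probes with 6 values, 7.28% were above 0 on at least 5 arrays, as Chga and Cpe were.

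Carboxypeptidase E, the enzyme that removes the basic residues from cut precursors, had values of 0.31, 0.25 and 0.14 on replicates 1 to 3 and of -0.31, 0.25 and 0.11 on replicates 4 to 6. Only replicate 4 was below 0. On replicates 2 and 5 Cpe and Chga stood at nearly the same value, 0.25 and 0.24 on replicate 2 and 0.25 and 0.25 on replicate 5, while on replicate 4 they lay on opposite sides of 0. The mean of Cpe was 0.23 ± 0.09 (SD, n = 3) in cy3 and 0.02 ± 0.29 (SD, n = 3) in cy5. The limma estimate was 0.13 ± 0.12 (SE, n = 6; adjusted p = 0.921), and with replicates 1 to 3 turned it was -0.11 ± 0.12 (SE, n = 6; adjusted p = 0.972). As deposited it was 0.21 without replicate 4 and 0.07 without replicate 5. Cpe was above 0 on replicates 1, 2, 5 and 6 alike, which held for 11.7% of the probes with values on these 4 arrays. Nppc was the only other member with this pattern, and Chga missed it on replicate 6.

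The 5 precursors known from forebrain neurons shared a pattern over arrays. They had 17 values in all. With the mutant in cy3 all 5 values, on replicates 1 and 2, were below 0 as deposited. With the mutant in cy5 all 7 values on replicates 4 and 5 were below 0 and all 5 on replicate 6 above. Joined over replicates 1, 2, 4 and 5, 12 of 12 values were below 0 as deposited, and 7 of 12 with replicates 1 to 3 turned. Probes measured on only 3 arrays, as most of these precursors were, leaned the same way on 4 of these 5 arrays: 70.3% and 63.5% of their values were below 0 on replicates 1 and 2 and 53.8% on replicate 5, and 64.7% were above 0 on replicate 6. On replicate 4 only 20% were below 0. Over all probes 43.9%, 42.9%, 59.7%, 44.6% and 50.6% were below 0 on replicates 1, 2, 4, 5 and 6. The median of all probes on replicate 4 was -0.13. Sst at -0.09 lay above that median and Tac1 at -0.30 below it.

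Somatostatin, the inhibitory peptide of a large interneuron class, had values of -0.46 and -0.32 in cy3, on replicates 1 and 2. In cy5 it had -0.09, -0.15 and 0.40 on replicates 4, 5 and 6. Both cy3 values lay below all 3 cy5 values as deposited, and they exceeded only 10.1% and 10.8% of the probes of their arrays. The values on replicates 4, 5 and 6 exceeded 52.9%, 27.2% and 85.5%. The mean was -0.39 ± 0.10 (SD, n = 2) in cy3 and 0.06 ± 0.30 (SD, n = 3) in cy5. Sst had a limma estimate of -0.17 ± 0.15 (SE, n = 5; adjusted p = 0.921), and with replicates 1 to 3 turned of 0.22 ± 0.15 (SE, n = 5; adjusted p = 0.972). As deposited it was -0.25 without replicate 6. Its difference between the orientations, cy5 minus cy3, was 0.44 and did not pass (adjusted p = 0.972). That difference is the same quantity as the turned estimate, doubled by how it is coded.

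Neuropeptide Y, an inhibitory peptide often made in the same interneurons as somatostatin, had values of -0.42 on replicate 1, -0.27 on replicate 5 and 0.54 on replicate 6. Cholecystokinin, the peptide of another interneuron class and of projection neurons, had -0.40, -0.44 and 0.12 on replicates 2, 5 and 6. Tac1, the precursor of substance P, was measured with the mutant in cy5 alone, at -0.30, -0.14 and 0.18 on replicates 4, 5 and 6. In each of these genes the 2 lower values lay below 0 and replicate 6 stood above 0.

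Prodynorphin (Pdyn), the precursor of the opioid peptide dynorphin, spread most of the 10 members. It stood at -0.93 on replicate 1, below all but 2.53% of that array's probes, at -0.31 on replicate 5, and at 1.23 on replicate 6, above 98.9% of the probes. Its mean was -0.0038 ± 1.12 (SD, n = 3) as deposited and 0.62 ± 0.82 (SD, n = 3) with replicate 1 turned, so the mean depends on the reading. These 4 genes lacked the values for a fit with the dye as a term. With at least 3 values and no dye term, limma fitted all 10 members, 0 passed, and so did 0% of 5436 probes. In that fit the estimates were -0.05 ± 0.26 for Npy, -0.24 ± 0.21 for Cck, -0.09 ± 0.20 for Tac1 and -0.0038 ± 0.43 for Pdyn (SE, n = 3 each), where any effect of the dye is left in. The means with replicates 1 to 3 turned were 0.23 for Npy, 0.02 for Cck and 0.62 for Pdyn, and Tac1 has no value on those arrays.

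The upstream sequences of Sst, Cck, Tac1 and Chga are shown because they are the members whose promoters hold the letters TGACG or, on the other strand, CGTCA. These letters are the core of the cAMP response element, a motif through which calcium and cAMP are known to act on transcription, and the somatostatin gene is its classic example. The windows are the 250 bases before the transcription start in RefSeq, build GRCm38.p6, 5′ to 3′ on the gene's strand, with these letters in capitals. They lie at chr16:23890845-23891094 (minus strand), chr9:121495695-121495944 (minus strand), chr6:7554811-7555060 (plus strand) and chr12:102554691-102554940 (plus strand).
Sst: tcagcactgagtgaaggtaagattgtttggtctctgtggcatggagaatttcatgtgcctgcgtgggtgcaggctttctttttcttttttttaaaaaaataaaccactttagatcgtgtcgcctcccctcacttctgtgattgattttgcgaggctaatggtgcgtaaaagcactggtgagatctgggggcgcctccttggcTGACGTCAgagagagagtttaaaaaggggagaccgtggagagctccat
Cck: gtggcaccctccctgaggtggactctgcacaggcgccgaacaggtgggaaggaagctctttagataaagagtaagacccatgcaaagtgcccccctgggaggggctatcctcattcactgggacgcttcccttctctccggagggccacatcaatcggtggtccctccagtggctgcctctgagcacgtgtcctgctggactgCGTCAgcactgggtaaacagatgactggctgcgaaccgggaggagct
Tac1: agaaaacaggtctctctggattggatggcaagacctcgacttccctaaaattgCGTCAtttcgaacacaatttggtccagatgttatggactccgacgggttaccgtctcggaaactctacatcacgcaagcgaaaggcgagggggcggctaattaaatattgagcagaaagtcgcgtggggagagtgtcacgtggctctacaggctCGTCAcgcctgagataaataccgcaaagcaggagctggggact
Chga: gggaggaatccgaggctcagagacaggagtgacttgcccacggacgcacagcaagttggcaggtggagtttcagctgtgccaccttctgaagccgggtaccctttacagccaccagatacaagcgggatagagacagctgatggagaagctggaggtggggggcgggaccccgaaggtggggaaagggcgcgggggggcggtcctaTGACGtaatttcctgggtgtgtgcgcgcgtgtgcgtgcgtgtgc

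Of the 9 members with a promoter in the table, all but Cpe, 4 held these letters, and of all 32851 windows of this length 17.8% did. The capitals begin 48 bases before the start in Sst, 47 in Cck, 43 in Tac1 and 44 in Chga, and Tac1 holds a further match at 197. Sst alone holds the full palindrome TGACGTCA, in which a match on either strand overlaps, and which 1.55% of all windows hold. In Cck and in the far match of Tac1 the letters are part of TGCGTCA, held by 1.75% of windows on either strand. These matches describe the letters in the window and not binding. The windows searched for Npy, Pdyn, Nppb, Nppc and Iapp held no match. The values of the members were not tested against these letters.

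Replicates 5 and 6 carried the mutant in the same dye and can be set side by side without settling the sign. All 5 forebrain precursors were below 0 on replicate 5 and above 0 on replicate 6, which held for 14.9% of all 5675 probes with both values. The share was 29.2% among the probes measured on exactly 3 arrays and 29.9% among those without a value on replicates 3 and 4. The gap from replicate 5 to replicate 6 was 1.55 for Pdyn, 0.81 for Npy, 0.56 for Cck, 0.55 for Sst and 0.32 for Tac1. Over all probes the median gap was -0.04, and it was 0.17 among probes measured on 3 arrays. Chga and Cpe went the other way, lower on replicate 6 by a gap of -0.30 and -0.15. This is a difference between 2 embryos on 2 arrays, noticed in the values, with no replicate and no test.

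Other precursors and interneuron markers were also mostly higher on replicate 6 than on replicate 5. Of the 10 other peptide hormone and growth factor precursors with both values, 8 were higher on replicate 6 than on replicate 5 and 5 crossed from below to above 0. The widest gaps, chosen after the values were seen, were those of Gcg, from -1.68 to 1.63, of Cartpt, from -2.41 to 0.88, and of Pnoc, from -1.08 to 0.36. Of 18 interneuron marker probes 14 were higher on replicate 6, with a median gap of 0.42, and 7 crossed from below to above 0. The GABA synthesis gene Gad1, chosen after the values were seen for its wide gap, went from -1.23 to 0.90, whereas the interneuron fate gene Dlx2 was lower on replicate 6, from -0.19 to -0.78. Of 17 neocortex marker probes 4 were higher there, with a median gap of -0.20. Over all probes 44.7% were higher on replicate 6, but 67.9% of the probes measured on exactly 3 arrays and 64.5% of those without a value on replicates 3 and 4. Of the probes with values on all 6 arrays, 37.2% were higher on replicate 6, with a median gap of -0.09. All 17 neocortex probes and most of the interneuron probes had values on all 6 arrays. In whole tissue, more cells of a type and more RNA per cell cannot be told apart, and the part of interneuron number in the peptide values was not tested.

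**Figure D3:**
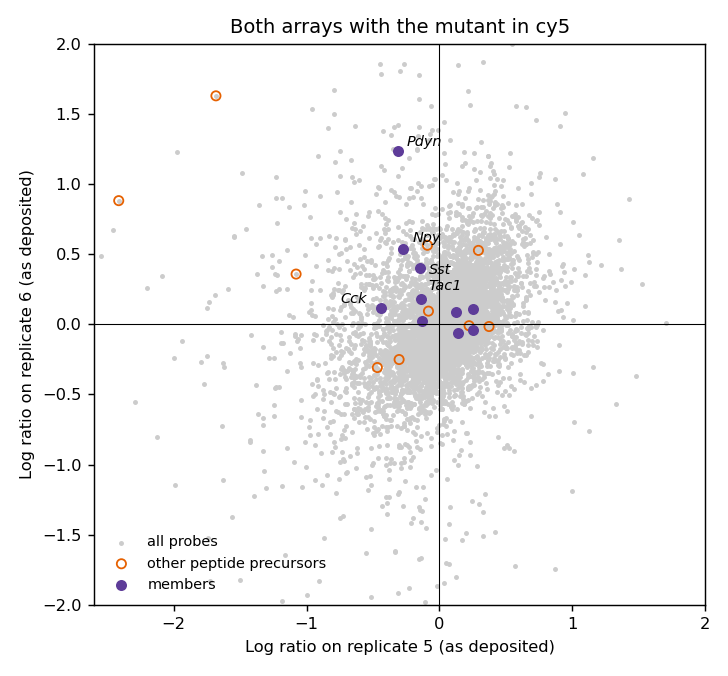
Log ratio on replicate 5 against log ratio on replicate 6, both with the mutant in cy5, for all probes (grey), the 10 members (purple) and 10 other peptide precursors (orange rings). The axes leave out 67 outlying probes. The 5 labelled precursors lie in the upper left part, below 0 on replicate 5 and above 0 on replicate 6.

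The natriuretic peptide and amylin genes followed another pattern. Nppb, the B-type natriuretic peptide of heart muscle, had values of 0.02, 0.33 and -0.47 on replicates 1 to 3 and of -0.28, -0.13 and 0.03 on replicates 4 to 6. Nppc, the C-type natriuretic peptide of brain, vessel and growing bone, had 0.18, 0.11 and -1.17, then -0.34, 0.12 and 0.09. Iapp, the amylin that islet cells release together with insulin, had 0.17, 0.17 and -0.59, then -0.26, 0.14 and -0.06. All 3 were above 0 on replicates 1 and 2 and below 0 on replicates 3 and 4. The same signs on these 4 arrays were seen in 33.1% of the probes with 6 values.

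The fits of these 3 genes rested on the arrays that stood apart. As deposited, the limma estimates were -0.08 ± 0.14 for Nppb, -0.17 ± 0.20 for Nppc and -0.07 ± 0.15 for Iapp (SE, n = 6 each), with adjusted p of 0.921, 0.921 and 0.927. In the turned reading they were -0.04 for Nppb, 0.13 for Nppc and 0.01 for Iapp. Without replicate 3 alone they lay on the other side of 0, at 0.02, 0.05 and 0.06. Without replicates 3 and 4 they were 0.06 ± 0.08 for Nppb, 0.13 ± 0.06 for Nppc and 0.11 ± 0.07 for Iapp (SE, n = 4 each), and 0 of 6 members passed, against 0.0212% of 4728 probes. In that fit 5 of the 6 members lay above 0, as did 2662 of 4225 genes, and Sst alone lay below at -0.13 ± 0.11 (SE, n = 4), while Chga stood at 0.21 ± 0.08 (SE, n = 4) and Cpe at 0.23 ± 0.07 (SE, n = 4). With replicates 1 and 2 turned as well, 1 of the 6 lay above 0 and 5 below. Sst was then at 0.26, Chga at -0.11, Cpe at -0.05, Nppb at -0.11, Nppc at -0.02 and Iapp at -0.07.

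**Figure D4:**
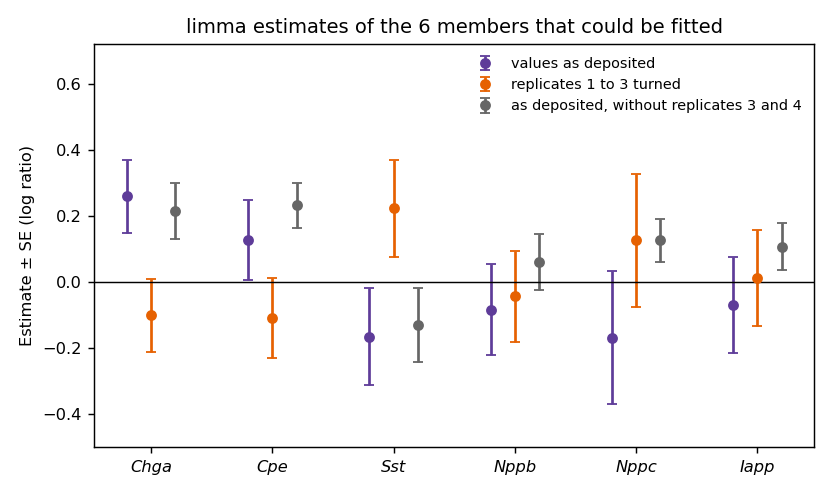
limma estimates with their standard errors, in log ratio, for the 6 members that could be fitted, from the values as deposited (purple), with replicates 1 to 3 turned (orange) and without replicates 3 and 4 (grey). Chga, Cpe and Sst keep their side of 0 without replicates 3 and 4 and change it when replicates 1 to 3 are turned.

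The profiles most like the members were sought by Pearson correlation over the 6 arrays, as deposited, among 3480 probes with a gene name and 6 values. With so few arrays many probes reach a high r, and the values are a description. Chga was most like Gpc5 (r = 0.978), Poglut1 (r = 0.969) and Prkdc (r = 0.964). Cpe was most like Trim27 (r = 0.982), Pdpn (r = 0.976) and Nrip2 (r = 0.976). Nppb was most like Slc6a2 (r = 0.977), Chil3 (r = 0.973) and Tecta (r = 0.967). Nppc was most like Pck1, Tmpo and Ppp5c, each at r = 0.997, and Iapp most like Wtap (r = 0.999), Kif3c (r = 0.998) and Gstm5 (r = 0.998). Only the 5 members with 6 values could be returned by this search, and none of them was among these genes. Nppc and Iapp correlated at 0.957, Nppb and Iapp at 0.838, and Nppb and Nppc at 0.807. Without replicates 3 and 4 these were 0.622, 0.221 and -0.237. Over 6 arrays Chga correlated between -0.473 and -0.253 with Nppb, Nppc and Iapp. Cpe correlated between 0.323 and 0.505 with them and at 0.165 with Chga. Without replicates 3 and 4 Chga and Cpe correlated at 0.999. Chga then correlated at 0.015 with Nppb, 0.861 with Nppc and 0.933 with Iapp, and Cpe at 0.014, 0.836 and 0.947.

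The rest of the secretory pathway gave no passing gene either. Of 43 listed genes of granule formation, prohormone processing and granule release, 27 had a probe, 25 had a value and 17 could be fitted. Of these 17, 11 lay above and 6 below 0 with a median of 0.03, and 0 passed. Under the turned sign 13 lay above 0 with a median of 0.13. Over all genes 1907 of 4417 lay above 0 as deposited (median -0.03) and 2344 when turned (median 0.02). Pam, which forms the amidated end of many peptides, stood at 0.30 ± 0.28 (SE, n = 5; adjusted p = 0.921), and its value of 1.78 on replicate 3 lay far above the others, so that it was 0.04 without replicates 3 and 4. The granule GTPase gene Rab3d stood at -0.14 ± 0.16 (SE, n = 6; adjusted p = 0.921) and the granin Scg3 at -0.10 ± 0.14 (SE, n = 6; adjusted p = 0.921). The turned estimates of these 3 were -0.42, 0.20 and 0.02.

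Other genes of the granule can be set beside chromogranin A. Chgb, the granin most closely related to Chga and named here after its values were seen, had 0.18, 0.08, -0.71, -0.49, 0.32 and 0.52 on replicates 1 to 6. Its values on replicates 3 and 4 were below 0 where those of Chga were at 0.43 and 0.26. On these arrays 58.2% and 59.7% of all values were below 0. The convertase gene Pcsk1 and its inhibitor gene Pcsk1n were also named after their values were seen. Pcsk1 was measured on replicates 5 and 6 alone, at 0.32 and 0.45, and Pcsk1n lay at -0.70 and -0.67 on replicates 1 and 2 but between 0.17 and 0.93 on the others.

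Other precursors and the receptors were sparsely measured. Of 48 further precursors listed, 26 had a probe, 18 had a value, 2 had a value on every array and 4 could be fitted, with 2 above and 2 below 0 in either reading. The neurotrophin Bdnf, whose transcription is known to follow activity, stood at -0.20 ± 0.16 (SE, n = 6; adjusted p = 0.921). It lay at -1.05 on replicate 1 and between -0.15 and 0.09 on the other 5 arrays. Avp stood at -0.09 ± 0.38 (SE, n = 4; adjusted p = 0.959) and Igf2 at 0.02 ± 0.13 (SE, n = 6; adjusted p = 0.969). The turned estimates were 0.22, -0.29 and -0.11.

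Of 46 listed peptide receptor genes, 33 had a probe but 14 had any value, and 5 could be fitted. Of these 5, 4 lay above and 1 below 0 as deposited, and 3 above and 2 below when turned. Without replicates 3 and 4, 2 lay above and 3 below. Over all genes 1907 of 4417 lay above 0 as deposited, 2344 when turned, and 2662 of 4225 without replicates 3 and 4. The cholecystokinin receptor gene Cckbr was the 1 below 0 as deposited, with -0.20, -0.43, -0.13 and -0.53 on replicates 1, 2, 5 and 6 and an estimate of -0.32 ± 0.16 (SE, n = 4; adjusted p = 0.921). It lay below 0 on each of these arrays, whereas its ligand gene Cck was above 0 on replicate 6. The somatostatin receptor gene Sstr2 stood at 0.30 ± 0.22 (SE, n = 6; adjusted p = 0.921), or 0.05 without replicates 3 and 4, and Crhr1 at 0.19 ± 0.13 (SE, n = 6; adjusted p = 0.921). Turned, Cckbr, Sstr2 and Crhr1 were -0.0058, -0.01 and 0.43. None of the further precursors or receptors fitted passed, in either reading.

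Markers of the cells that could carry the peptides were followed with the same fit. Of 14 interneuron genes fitted 6 lay above and 8 below 0, with Dlx2 at -0.37, Gad2 at -0.25 and Prox1 at 0.34 (adjusted p = 0.921 each), or -0.22, 0.27 and 0.28 in the turned reading. Of 17 neocortex genes 6 lay above 0, with Eomes at 0.33, Emx2 at 0.17 and Sox2 at 0.18 (adjusted p = 0.921 each), or -0.17, -0.04 and -0.19 turned. Without replicates 3 and 4, 14 of the 17 lay above 0, and the median went from -0.09 to 0.09. Over all genes 2662 of 4225 lay above 0 without these replicates (median 0.05), and 1907 of 4417 with them (median -0.03). Of 7 blood genes 2 lay above 0, with Car2 at -0.13, Slc4a1 at 0.15 and Hba-a1 at -0.09, or 0.05, 0.13 and 0.08 turned. Of 12 meninges and vessel genes 4 did, with Col5a2 at 0.70, Dcn at -1.28 and Cdh5 at 0.49, or -0.45, 0.56 and -0.13 turned. In the turned reading 6, 8, 6 and 10 of these 4 lists lay above 0, as did 2344 of the 4417 genes fitted. In no list did a gene pass in limma, in either reading, and the part of these cell types in the peptide values was not tested.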

How the data were processed

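The deposited table holds 1 log ratio for each probe and array, treated here as log2. Not given in the sources used here are the authors' background correction, normalization, log base, direction and rule for missing values. Array means lay within 0.01 of 0. Array medians were 0.05, 0.04, -0.23, -0.13, 0.04 and -0.0049 on replicates 1 to 6. A value below 0 on replicate 3 or 4 can thus lie above the middle of its array. Probes were named from the platform annotation (6269 with 1 symbol, 6 with several, 581 with none), and all 10 members matched RefSeq by gene identifier.

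The fit used limma 3.58.1 (lmFit, eBayes) under R 4.3.3, on probes having 2 or more values per dye orientation. The estimate is the mean of both orientations, with the orientation as a term. Tests were two-sided and adjusted by Benjamini-Hochberg over all probes, with a threshold of 0.05. Lists were summarised on ratios averaged per gene. The fit was tested on simulated data that lacked the same values.

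Members and lists were chosen with earlier results of these data known. Named besides the members are the 3 fitted genes of each list with the smallest p, the 3 most similar profiles of each member with 6 values, and genes marked as chosen after their values were seen. Emx1, Tbr1 and Neurod6 are named only as examples of neocortex genes with values on all 6 arrays. Alternatives were the turned sign, no dye term, median centring, scaling, array weights, robust moderation, other minimum numbers of values, leaving out replicates, averaging per gene and natural logarithms. Scanner intensities were not used here. The gene mutated in these embryos is not reported here.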

Additional observations from a re-analysis of the deposited data

Results flagged for a closer look

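Cpe on replicate 4 was flagged as a sample far from the others. Its value of -0.31 was separated by 67.1% of the gene's whole range from the nearest of the other 5 arrays, which lay between 0.11 and 0.31. Replicate 4 is 1 of the 2 arrays that stood apart over all probes, and on it 59.7% of all values were below 0. Its part in the value was not tested. This rule flags about 1 in 20 groups by chance, and 6 members had enough values for it.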

How the results depend on the processing

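No member passed under any alternative run. Over all probes 2 passed with array weights and 1 without replicates 3 and 4, and 0 under each other alternative, including leaving out single replicates (0 to 0). With replicates 1 to 3 turned the estimates changed side for Chga (-0.10), Cpe (-0.11), Sst (0.22), Nppc (0.13) and Iapp (0.012). With replicates 3 and 4 also left out, an alternative chosen after seeing the data, they did for Chga (-0.11), Cpe (-0.050) and Sst (0.26). Scaled arrays turned Nppb (0.0064) and Iapp (0.033), and array weights Nppb (0.075), Nppc (0.092) and Iapp (0.077). Without replicates 3 and 4, Nppb (0.060), Nppc (0.13) and Iapp (0.11) changed side. Leaving out single replicates gave -0.18 to 0.023 for Nppb, -0.29 to 0.050 for Nppc and -0.13 to 0.056 for Iapp, each positive without replicate 3 alone. For Cpe they gave 0.066 to 0.21, for Sst -0.25 to -0.12 and for Chga 0.23 to 0.31. The causes were not tested. Read as natural logarithms, the estimate of Chga would be 0.37, with the same p-values. Sst could not be fitted without replicate 1 or 2. Removing dim probes was not run, since no intensities were used, so that signal over background limits every value in a way that is unknown. No paired analysis was possible because the mutants form 1 group against 1 pool.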
